A study of Komagataella pastoris with 3 samples.

Results

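A group of 128 genes of the yeast Pichia pastoris GS115 at least doubled their level from 24 to 36 h of culture and at least doubled it again from 36 to 48 h. They were chosen from the 5028 genes that reached 1 FPKM in any library, out of 5040 in the table. FPKM counts sequenced fragments relative to the length of the gene and to the size of the library. Change was taken as a difference of log2(FPKM + 1), and both differences had to be at least 1. The same limits were passed by 130 genes, of which 2, those with the largest increase of the table from 24 to 48 h, were left out by the rule. All 128 passed the filter on low values, 0 of them were listed at 0 in any library, and their lowest value was 1.51 FPKM. Because the 3 libraries themselves chose these genes, their levels and changes are a description and carry no test.

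GS115 is a histidine-requiring laboratory strain of a methylotrophic yeast used to make recombinant proteins, now usually classed as Komagataella phaffii. The labels give its genotype as wild type. Cells were grown with shaking in YPD, a rich glucose medium with yeast extract and peptone, with no other agent, and messenger RNA was sequenced from cells collected after 24, 36 and 48 h. Each time point had 1 library, so no value has a replicate error, each comparison is one between libraries, and the labels do not say whether the harvests came from 1 flask. The interval between libraries was 12 h in both cases.

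Yeasts grown in batch on glucose use the sugar first, then turn to products such as ethanol and to amino acids, and slow their division as nutrients run out. During that passage genes held down by glucose are expressed, among them genes for the use of other carbon sources, for peroxisomes and for stress protection, while genes for ribosome synthesis are turned down. In methylotrophic yeasts the enzymes of methanol use are a well known class held down by glucose. Whether the 128 genes belong to such classes could not be asked here, since the table gives locus tags without names or functions. None of its tags (0 of 5040) was found in the gene table at hand, which covers 5305 genes of another species, Komagataella pastoris ATCC 28485. The 23 gene lists prepared on carbon use, peroxisomes, proteolysis, stress, transport and other functions therefore had 0 matched genes and give no values. Genes are described by level, profile and place of their tag, and only the pair with the largest increase is named.

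At 24 h most of the 128 genes lay low in the transcriptome, and at 48 h most lay high. Their median level went from 28.8 FPKM at 24 h through 119 to 423 FPKM at 48 h. The median over all 5028 genes was 54.5, 48.4 and 51.6 FPKM at the same times. Of the 128 genes, 37 exceeded that median in the first library, 97 in the second and 123 in the last, and the number below the lower quartile of all genes went from 66 through 8 to 1. The median rank of a member among the 5028 genes, counted from the highest, moved from 3869 through 1159 to 289.

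**Figure D1:**
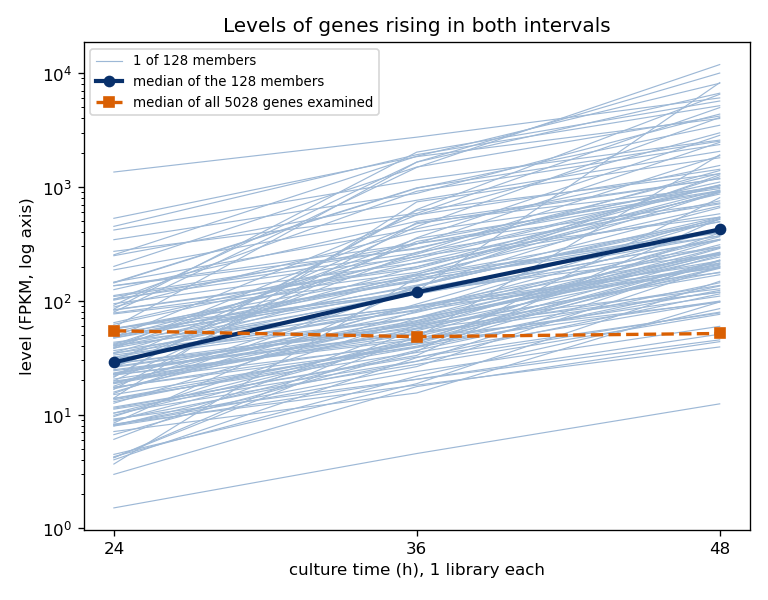
Level of each of the 128 genes (thin lines) in FPKM on a log axis by culture time, 1 library each. The median of the members goes from 28.8 to 423 FPKM (dark line), while the median of all 5028 genes examined stays between 48.4 and 54.5 FPKM (dashed line).

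The genes' share of total FPKM was 1.01% in the 24 h library, 5.09% in the 36 h library and 21.7% in the 48 h library. Total FPKM itself was 871921, 785727 and 760684, so the members' part grew within a slightly smaller sum. In FPKM, their joint level was 8810, 40022 and 165075. Of that increase 19.97% had taken place by 36 h. A smaller gain in the first interval follows from the rule, which asks for a doubling on top of a doubling, and each of the 128 genes accordingly gained more FPKM after 36 h than before. The share of a gene's own gain reached by 36 h had a median of 22.9% and ran from 0.837% to 48.1%.

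The size of the change differed widely among the members. From 24 to 36 h the change on the log2(FPKM + 1) scale had a median of 1.61, an interquartile range from 1.24 to 2.48 and a highest value of 5.63. From 36 to 48 h the median was 1.83, the interquartile range 1.36 to 2.35 and the highest value 6.08. Over all 5028 genes the medians were -0.21 and 0.03. In the first interval 47 of the 128 genes increased at least 4-fold, against 2.61% of all genes examined, and in the second 49 did, against 2.82%. The 2-fold limit, which every member passed by the rule, was passed by 9.47% of all genes in the first interval, by 13.5% in the second and by 2.59% in both. Since the rule used these values, nothing is read from the members' counts against the shares of all genes.

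**Figure D2:**
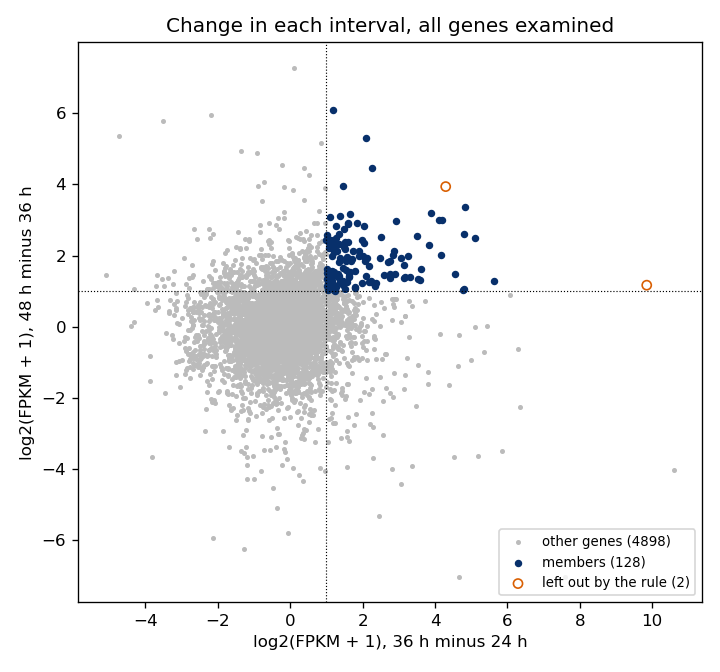
Difference of log2(FPKM + 1) between 36 and 24 h (horizontal) and between 48 and 36 h (vertical) for each of the 5028 genes examined, with dotted lines at the limit of 1. The 128 members (dark points) reach 5.63 on the horizontal and 6.08 on the vertical axis, with medians of 1.61 and 1.83, and the open circles mark the genes left out by the rule.

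From 24 to 48 h the members' median change was 3.61, with a range from 2.07 to 8.18, and 96 of the 128 were at least 8-fold higher, against 2.96% of all genes examined. Of the 147 genes that were at least 8-fold higher over the whole course, without those left out by the rule, these 96 had gained at least 2-fold in both intervals. A further 22 were higher by 36 h and then within 2-fold, and 24 were within 2-fold until 36 h and then higher. Ranked without the genes left out by the rule, the members made up 8 of the 10, 19 of the 25 and 38 of the 50 largest increases over the course. A rule that asks for a doubling in each interval favours such places, so nothing is read from these counts.

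The members can be sorted by which interval held a 4-fold step. In 17 genes both intervals did, and these had medians of 19.8, 170 and 1915 FPKM at the successive times. They held 36.2% of the members' 48 h FPKM. A 4-fold step in both intervals was found in 0.358% of all genes examined, those left out by the rule included. These 17 genes started lower than the members as a whole and ended higher, as sorting by a 4-fold step in both intervals favours.

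In 30 genes the first interval alone held a 4-fold step, and their medians were 26.2, 257 and 811 FPKM. In 32 genes the second interval alone did, with medians of 32.7, 80.4 and 471 FPKM. The early and the late genes began at similar medians, and their distance at 36 h follows from sorting them by the interval of the step. In the remaining 49 genes neither step reached 4-fold, and their medians were 31.1, 87.3 and 256 FPKM. They were the most numerous kind and held 17.7% of the members' 48 h FPKM.

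The balance between the intervals was close. The change was larger in the first interval in 61 genes and larger in the second in 67, and it differed by under 0.5 on the log2 scale in 53. This balance turns with the scaling of the libraries and also moves with the pseudocount. When the libraries were rescaled by median-of-ratios factors, which moves the median of all genes in the first interval from -0.21 to 0.02, the first interval held the larger change in 79 of the 128 genes, and with a trimmed-mean scaling in 70.

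PAS_chr2-2_0208, on chromosome 2 by its tag, had the largest change of the members over the course. Its level was 21.6 FPKM at 24 h, then 634 and 6525 FPKM. It thus went from rank 4321 of the 5028 genes to rank 189 and then to rank 8. Its change was 4.81 on the log2(FPKM + 1) scale in the first interval, 3.36 in the second and 8.18 over the course.

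PAS_chr1-1_0108, on chromosome 1 by its tag, had the next largest change, 7.61. Its level was 3.68 FPKM at 24 h, then 161 and 914 FPKM, so that it remained well below PAS_chr2-2_0208 in each library. Its starting value rests on a low level at which the pseudocount matters, and the plain ratio of 48 to 24 h was 249 where that of PAS_chr2-2_0208 was 303. Its first step was 5.11 and its second 2.502.

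At 48 h the members supplied a large part of the most abundant messages. They were 7 of the 10 genes with the highest FPKM, 25 of the highest 50 and 39 of the highest 100, where at 24 h they were 0 of the highest 100 and at 36 h 10 of them. A level of at least 1000 FPKM was held by 1 member in the first library, 10 in the second and 39 in the last, and these 39 were 38.2% of the 102 genes of the table at that level. The table had 28 genes that were under 100 FPKM at 24 h and reached 1000 FPKM by 48 h, and 20 of them were members. At 36 h 1 of these 20 was still under 100 FPKM, 15 were between 100 and 1000 FPKM and 4 had already reached 1000 FPKM.

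The member with the highest level at 48 h had 79.7 FPKM at 24 h, then 1486 and 11902 FPKM, which placed it at rank 3 of all genes. The next had 58.6, 1655 and 10023 FPKM. Both carry tags of chromosome 4, started near the median gene and made the larger of their 2 changes before 36 h.

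The third had 52.4 FPKM at 24 h, then 121 and 8251 FPKM. It started from a like level but made almost the whole of its gain after 36 h: its change was 1.19 in the first interval and 6.08 in the second, the largest second step of all members. Only 0.837% of its gain had taken place by 36 h. A second gene of this late kind, at place 23 by 48 h level, had 10.3, 47.3 and 1915 FPKM, with changes of 2.097 and 5.31.

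The opposite shape was found as well. The member with the largest first step, 5.63, had 14.0 FPKM at 24 h, then 740 and 1806 FPKM, with a second step of 1.29. Another had 21.3, 623 and 1306 FPKM, and its second step of 1.07 was near the limit. The ratio of the 36 h to the 24 h level was 52.8 in the former and 29.3 in the latter.

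A few members were abundant from the start. The member at rank 120 of all genes at 24 h, the highest of the group at that time, had 1353 FPKM at 24 h, then 2740 and 6060 FPKM. Its changes of 1.02 and 1.15 lay just inside both limits, and it was at rank 10 at 48 h. The 21 members with at least 100 FPKM at 24 h had medians of 146, 765 and 2528 FPKM. The 22 members under 10 FPKM at 24 h had medians of 7.52, 30.5 and 142 FPKM, so that the lowest genes at the start stayed the lowest at the end as a class. Members were 12.4% of the 177 genes under 10 FPKM at 24 h, 2.504% of the 3395 genes from 10 to 100 FPKM and 1.44% of the 1456 genes at or above 100 FPKM, a gradient that a choice by increase from the 24 h value itself favours.

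**Figure D3:**
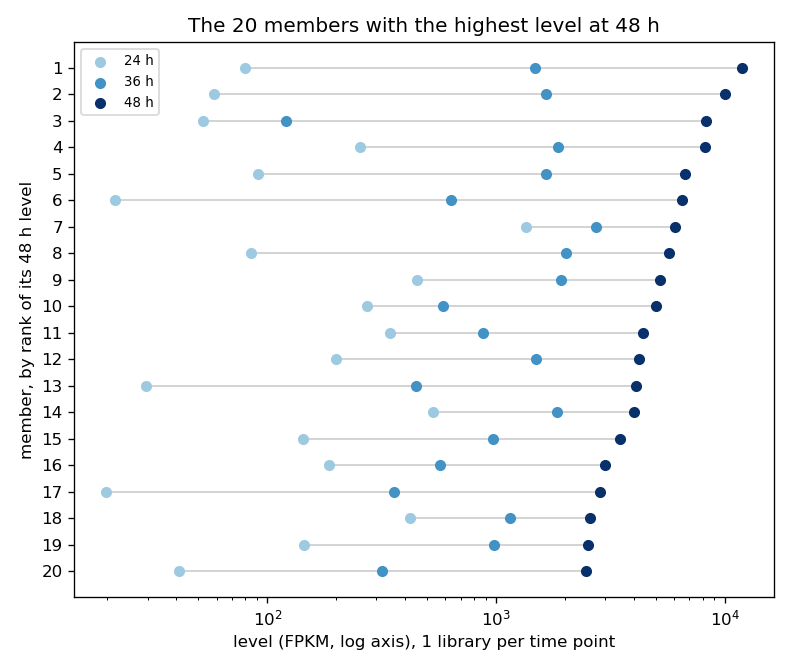
Level in FPKM (log axis) at 24, 36 and 48 h of the 20 members with the highest level at 48 h, 1 row per member and 1 library per time point. The third row shows the late step from 121 to 8251 FPKM, and the seventh row the member that stood at 1353 FPKM already at 24 h.

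Much of the members' signal rested on few genes. The 10 highest held 44.5% of the members' FPKM at 48 h and the 20 highest 64.8%, and 13 genes were enough to hold 50% of it. At 24 h, with the leading genes partly different, the 10 highest held 48.3%, 15.4% being the single gene at rank 120. At 36 h they held 44.6%. The 39 members that reached 1000 FPKM by 48 h had medians of 91.3, 568 and 2468 FPKM and held 81.2% of the members' 48 h FPKM. A further 75 members were between 100 and 1000 FPKM at 48 h, and 14 were under 100 FPKM, down to the lowest member with 1.51, 4.55 and 12.4 FPKM.

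The limits cut through a continuous range. Just inside the limit on the first interval were genes with changes of 1.0004, 1.007 and 1.008, and the first of them had 22.3, 45.6 and 252 FPKM. Just outside it were genes with 0.989, 0.975 and 0.972 that passed the other limit, and the second of them had 103, 203 and 842 FPKM. For the second interval the nearest values inside were 1.007, 1.02 and 1.03, and the nearest outside were 0.992, 0.991 and 0.989. Without those left out by the rule, 382 genes reached 0.5 in both intervals, 224 reached 0.75 and 48 reached 1.5.

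The 128 genes were set beside the groups most like them. The 265 genes that were higher by 36 h and then within 2-fold had medians of 53.9, 184 and 195 FPKM. The 417 genes that stayed within 2-fold until 36 h and were higher after it had medians of 33.1, 33.4 and 97.3 FPKM. The members' starting median of 28.8 FPKM was close to that of the later group, and their final median of 423 FPKM exceeded both, as a rule that asks for a doubling in each interval favours.

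In the first interval the 265 genes had a median change of 1.40, where the members had 1.61. In the second the 417 genes had 1.40, where the members had 1.83. Together with the 24 h and 48 h shares of total FPKM, 4.38% and 16.8% for the 265 genes and 2.29% and 10.4% for the 417, the members were the fewest and held the largest share at 48 h. All of these sets were cut from the same 3 libraries, so no test of the differences was possible.

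The place of the genes, read from their tags, was not used by the rule. Of the 128 tags, 34 were of chromosome 1, 26 of chromosome 2, 31 of chromosome 3 and 33 of chromosome 4, and 4 were of a tag block not tied to a numbered chromosome, FragB. As a share of the genes examined this was 2.35% on chromosome 1, 1.96% on chromosome 2, 2.64% on chromosome 3 and 3.49% on chromosome 4, against 2.55% of all genes examined. With median-of-ratios scaling, under which 167 genes passed both limits, the shares were 3.24%, 2.86%, 3.24% and 4.23%, against 3.32% of all genes examined. Chromosome 4 had the highest and chromosome 2 the lowest share of the 4 chromosomes under both scalings. The 167 genes hold all 128 members and 39 others, so the 2 sets of shares are not independent. The differences between these shares were not tested. In FragB the 4 members were 5.80% of 69 genes under both scalings, the highest share of any tag block, from few genes.

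Within chromosome 2 the tags fall into 2 blocks. The block 2-1 held 11 members among 857 genes, 1.28%, and the block 2-2 held 15 among 471, 3.18%. With median-of-ratios scaling the shares were 2.45% and 3.61%, while the share of all genes examined went from 2.55% to 3.32%. Both blocks thus had a larger share under that scaling, and that of the first block moved more.

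Members were mostly spread singly along the tags. A member had another member at the next tag number in 12 cases, which form 6 pairs, or 9.38% of the members. Among groups of similar size, the same was true of 10.6% of the 132 genes that were lower and then higher and of 12.6% of the 151 genes that were lower in both intervals. In the smaller group of 81 genes that were higher and then lower it was 17.3%. The members' share was thus no larger than that of these groups, which is no comparison with all genes. Of the 4898 genes that were neither members nor left out by the rule, 222 had a member at a neighbouring tag, a smaller share than the members' 9.38%. Members thus lay beside a member more often than these other genes did, and the difference was not tested.

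Levels within a pair could lie far apart or close together. In 1 pair on chromosome 3 a gene with 419, 1155 and 2582 FPKM stood beside one with 11.2, 29.5 and 79.5 FPKM, although their changes over the course, 2.62 and 2.73, were close. In another pair on the same chromosome the levels at 24 and 36 h were alike, 13.0 and 43.1 FPKM beside 13.5 and 38.8 FPKM, and parted at 48 h to 396 and 124 FPKM.

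The genes beside the members, not chosen by the rule, were compared as well. Of the 222 genes at a tag number next to a member that were themselves in neither set, members or left out, 54, or 24.3%, increased at least 2-fold from 24 to 48 h. Among all 4898 genes that were neither members nor left out by the rule the share was 16.0%, and among all 5028 genes examined it was 18.2%. At 2, 3 and 5 steps in tag number the share was 19.0%, 20.2% and 19.5%, and at 10 steps it was 10.5%. The share thus did not fall steadily with distance and went below that of all genes. A gene was counted at each of these distances it had from any member, so the sets can share genes. With median-of-ratios scaling the share was 29.7% next to a member and 20.1% over those 4898 genes. The median change of the 222 genes was -0.19, against -0.29 over the 4898. These differences rest on 1 library per time point and were not tested. Their median level at 48 h was 73.7 FPKM, against 50.2 FPKM over the 4898. Without strand information for the counting, fragments of overlapping neighbours cannot be told apart, and the part of such overlap was not tested.

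**Figure D4:**
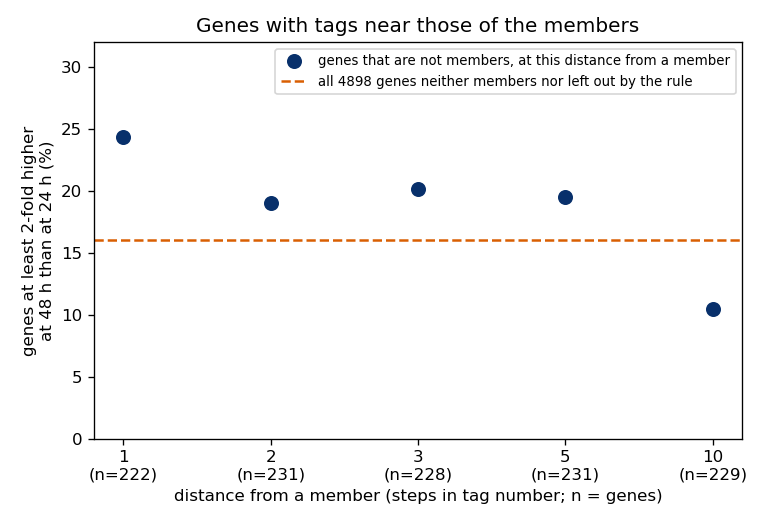
Share in percent of genes that increased at least 2-fold from 24 to 48 h among genes that are not members, by their distance from a member in steps of tag number, from 1 library at each time. The point at 1 step is 24.3% and that at 10 steps 10.5%, on either side of the 16.0% of all 4898 genes that are neither members nor left out by the rule (dashed line). The sets at different distances can share genes.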

How the data were processed

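The deposited values are FPKM, per the file headers, in 1 column for each library with none pooled. CASAVA and HISAT2 2.1.0 are named in the submitters' processing notes. Not given in the sources used here are the counting program, genome build, annotation, strandedness and filters. FPKM is relative to the library total, so a fall of abundant genes lifts all others. The code in each sample title tied its column to a time point.

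Depth was looked for in genes below 3 FPKM in a pair of libraries (19 to 34 genes). The best scaling placed 23.5% to 36.8% of ratios within 0.2% of ratios of whole numbers up to 10, no more than the best of 20 jittered copies, so whole reads were not recovered and depth is unknown.

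Genes with at least 1 FPKM in any library were kept. Limits of 2-fold are rules of size, as 1 library per time point allows no test. The members and lists were chosen with earlier results of these data known. Genes were to be named by symbol. As no symbol was found, the 2 members with the largest change from 24 to 48 h are named by tag. Tag numbers were taken as the order of genes, which was not checked against an annotation. The alternatives were other pseudocounts, filters, scalings and a 4-fold limit. Python 3.11.15, numpy 2.4.6, pandas 2.3.3 and matplotlib 3.10.9 were used.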

Additional observations from a re-analysis of the deposited data

How the results depend on the processing

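All 128 members were chosen again under each scaling and with a pseudocount of 0.1. The scalings favoured this. Median-of-ratios and trimmed-mean scaling moved the median first change of all genes from -0.21 to 0.02 and -0.004. They moved the median second change from 0.03 to 0.03 and 0.08. Median-of-ratios scaling gave 167 genes, trimmed-mean scaling 166 and the pseudocount of 0.1 gave 135. With a pseudocount of 10, 95 of the 128 remained and 0 were added. A lower pseudocount can only enlarge a rise, so no member could be lost with 0.1 and no gene added with 10. No filter, a filter at 10 FPKM and leaving out genes listed at 0, an alternative chosen after seeing the data, each gave 128. These outcomes were fixed by the rule and the members' levels. A gene under 1 FPKM in all libraries cannot pass both limits. The lowest level of a member at 48 h was 12.4 FPKM, and 0 members were listed at 0. With the 4-fold rule, stricter by construction, 17 genes passed in both intervals, and 131, 142 and 341 genes were higher at 36 h than at 24 h, at 48 h than at 36 h, and at 48 h than at 24 h. The members' median change in the first interval was 1.64 and 1.34 with pseudocounts of 0.1 and 10, 1.84 with median-of-ratios and 1.81 with trimmed-mean scaling. In the second interval it was 1.85, 1.62, 1.83 and 1.88 in the same order. Without the highest member the share of total FPKM at 48 h was 20.1%. The first interval held the larger change in 61 of the 128 members, in 79 with median-of-ratios and in 70 with trimmed-mean scaling, so this balance turned. With pseudocounts of 0.1 and 10 the count was 64 and 50. No paired analysis was possible because there is only 1 library for each time, and for that reason no replicate could be left out. Unknown depth limits the values of low genes most.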
